A study of Arabidopsis thaliana with 28 samples.

Results

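Transcript levels of the h2a.z-5 triple mutant of Arabidopsis thaliana were compared with those of wild type Col-0 in whole seedlings. The comparison uses 6 of the 28 libraries of the series, 3 of h2a.z-5 and 3 of Col-0, chosen by their genotype labels. The h2a.z-5 line carries 1 extra adenosine in HTA8 and the T-DNA insertion lines SALK_054814 and SALK_017235, whose target genes the labels do not name. Col-0 is the Columbia-0 accession without these alleles. Both were grown on soil under long days at about 21 °C, after stratification for 4 days at 4 °C, and harvested 12 days after germination. The other libraries used here, from seedlings of the same age, were hda9-1 h2a.z-5 beside hda9-1, hda6-1 h2a.z-5 beside hda6-1 (3 of each, on soil), and wild type treated with the deacetylase inhibitor trichostatin A (TSA) beside Mock (5 of each, in sucrose medium).

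H2A.Z is a variant of histone H2A that the SWR1 remodelling complex places in nucleosomes, mostly near the start of transcribed genes and over the bodies of genes with low or inducible expression. In Arabidopsis it is encoded by HTA8, HTA9 and HTA11, with HTA4 as a diverged and weakly expressed member. Plants without H2A.Z or SWR1 subunits flower early and express FLC, a MADS-box repressor of flowering, at a low level.

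The labelled HTA8 allele was first set against the reference coding sequence, because it defines what the mutant can still make. The HTA8 coding sequence holds 411 bases, or 136 codons before its stop. An A added after coding base 241 gave an open frame of 105 codons and a stop that ended at base 318, the base that the labels name. The stretch lies at chr2:16219538-16219643 (TAIR10.1, minus strand) and covers coding bases 212 to 317. It is printed from the RefSeq genome, with coding base 241 in capitals in the first line, and with the added A and the new stop codon in capitals in the second.
HTA8 reference: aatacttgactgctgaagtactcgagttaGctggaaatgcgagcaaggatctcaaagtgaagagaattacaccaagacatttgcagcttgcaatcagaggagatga
HTA8 with the labelled insertion: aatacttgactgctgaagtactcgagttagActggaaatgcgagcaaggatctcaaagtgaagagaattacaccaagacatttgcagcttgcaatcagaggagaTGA

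Transcripts of HTA8, HTA9 and HTA11 were lower in h2a.z-5, and those of HTA9 were reduced rather than lost. HTA11 (chr3:20196140-20197726) stood at 1.28, 2.05 and 1.6 CPM (counts scaled to library size) in the h2a.z-5 libraries, against 52.9, 60.3 and 70.9 CPM in Col-0. HTA9 (chr1:19645236-19646485) stood at 47.6, 56.0 and 54.1 CPM in h2a.z-5, against 135, 154 and 143 CPM in Col-0. HTA8 (chr2:16219220-16220928) stood at 5.05, 6.40 and 6.75 CPM in h2a.z-5, against 14.7, 18.1 and 17.9 CPM in Col-0. In each of these genes every h2a.z-5 library lay below every Col-0 library. The log2 fold changes of h2a.z-5 over Col-0 were -5.24 ± 0.24 for HTA11, -1.45 ± 0.17 for HTA9 and -1.48 ± 0.22 for HTA8 (± SE). Their adjusted p-values were 3.36e-09, 0.000189 and 0.00160 by edgeR's quasi-likelihood test with Benjamini-Hochberg adjustment over all genes tested. HTA4 stood at 0.756, 0.985 and 1.17 CPM in h2a.z-5, against 0.743, 1.79 and 0.759 CPM in Col-0, with overlapping groups and an adjusted p of 0.961. A transcript count does not show whether the remaining HTA9 and HTA8 transcripts encode a whole protein. None of the 9 other H2A genes tested passed in either direction; edgeR gave 1 with an unadjusted p under 0.05, and DESeq2 called 0. Of 15 genes of the SWR1 and INO80 remodellers and H2A.Z chaperones, 1 fell, the SWR1 subunit gene SEF, with a log2 fold change of -0.52 and an adjusted p of 0.0470; that call was lost without any 1 of the 6 libraries (adjusted p 0.0889 to 0.180) and with the length trend removed (0.396).

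The 6 libraries held 32795474 to 39633678 gene counts each. Each photosynthesis marker was present, and 0 of 20 passed the test (edgeR: 0 with an unadjusted p under 0.05; DESeq2: 0). Their summed level was 141090 to 165350 CPM in h2a.z-5 and 133270 to 167040 CPM in Col-0. The root markers summed to 108 to 196 CPM in h2a.z-5 and 95.1 to 184 CPM in Col-0, and 4 of 8 seed markers had no count in the 6 libraries. In whole seedlings, fewer cells of a type and less RNA per cell cannot be told apart.

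Among 20771 genes tested, 785 differed between h2a.z-5 and Col-0 at an adjusted p under 0.05, which is 3.78% of the genes. Of these, 358 genes (1.72%) were higher and 427 (2.06%) were lower in h2a.z-5. Small changes were the most frequent. Changes under 2-fold made up 146 of the higher and 312 of the lower genes, changes of 2- to 4-fold 134 and 76, and changes over 4-fold 78 and 39. The h2a.z-5 and Col-0 libraries did not overlap in 322 of the higher and 351 of the lower genes, where 7.8% and 8.08% of all genes tested were apart in those directions. The replicate number entered the fit as a block. Without that block, 109 of the higher and 80 of the lower genes were called, with no change of sign. Without any 1 of the 6 libraries, 155 to 220 higher and 114 to 325 lower genes were called. In the authors' deposited table of this comparison 672 of the 785 genes were listed, all with the same sign, and 253 of them had an adjusted p under 0.05 there.

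**Figure D1:**
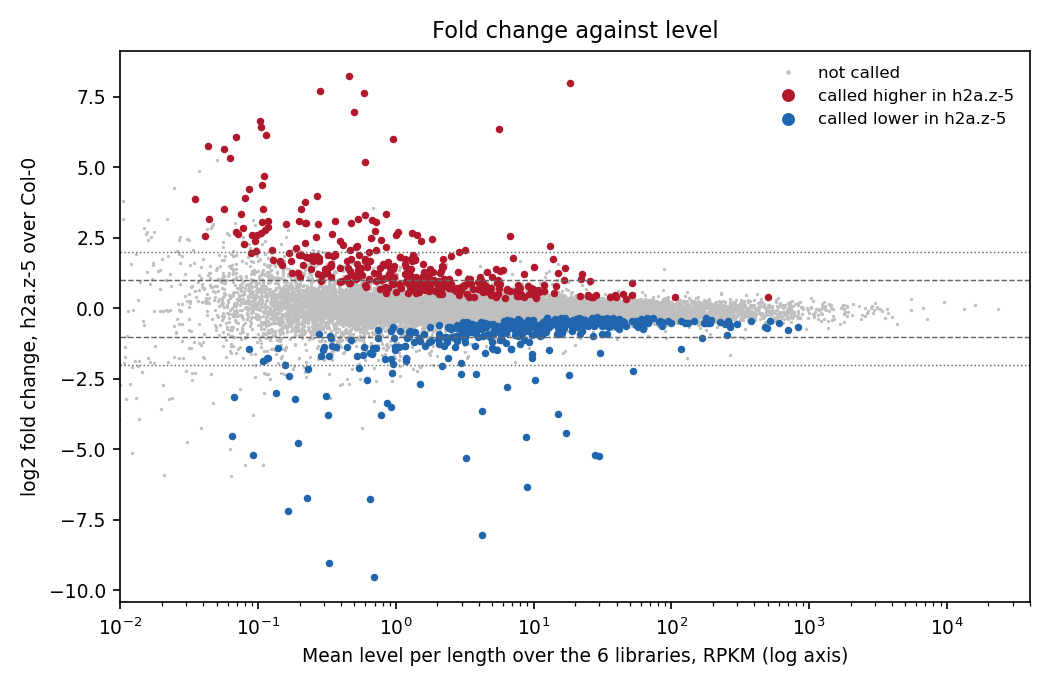
Each point is 1 gene, placed by its mean level per exon length over the 6 libraries (RPKM, log axis) and its log2 fold change of h2a.z-5 over Col-0; red genes were called higher, blue genes lower, and dashed and dotted lines mark 2-fold and 4-fold. The 78 genes over 4-fold higher lie mostly at low levels, while the 312 genes under 2-fold lower lie mostly at middle and high levels.

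The median level per exon length was 3.05 RPKM for genes under 2-fold higher, 0.806 RPKM at 2- to 4-fold and 0.243 RPKM over 4-fold, against 4.63 RPKM over all genes tested. Genes under 2-fold lower had a median of 15.1 RPKM, those at 2- to 4-fold lower 1.56 RPKM and those over 4-fold lower 0.857 RPKM. In 5 equal classes of all genes, ordered from low to high RPKM, 149, 111, 50, 30 and 18 genes rose and 46, 53, 79, 116 and 133 fell. With the length trend removed the higher calls spread as 143, 93, 45, 33 and 21 over these classes, and the lower calls as 45, 36, 67, 64 and 61. In 5 classes by mean CPM, which does not divide by length, 137, 119, 56, 30 and 16 genes rose and 64, 77, 101, 105 and 80 fell, and with the length trend removed 51, 53, 67, 53 and 49 fell. The higher genes were thus mainly genes with few transcripts under each measure, while most of the gradient of the lower genes was seen with RPKM before the length trend was removed. With few counts only large changes can pass the test, so the rarity of small changes among weakly expressed genes is not a measure of their frequency.

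Gene length ran through the lower genes. The median exon length was 1118 bases for genes under 2-fold lower and 2084 bases for genes under 2-fold higher, against 1749 bases for all genes tested. In 5 equal classes from short to long exons, 221, 109, 48, 30 and 19 genes fell. The libraries themselves tilt with length: the median deviation of genes in the shortest minus the longest of 10 length classes was -0.454, 0.373 and -0.294 on the log2 scale in the h2a.z-5 libraries, against -0.110, 0.711 and 0.207 in Col-0. In each replicate number the h2a.z-5 library lay below its Col-0 partner on this scale. With the length trend removed from each library, 608 genes (2.93%) were called, 335 higher (1.61%) and 273 lower (1.31%), and the lower calls spread as 74, 68, 55, 48 and 28 over the 5 classes. Of genes under 2-fold, 87 of 146 higher and 150 of 312 lower calls were kept. At 2- to 4-fold 122 of 134 and 56 of 76 were kept, and over 4-fold 76 of 78 and 33 of 39. Whether the tilt arose in the plants or in the libraries was not tested.

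**Figure D2:**
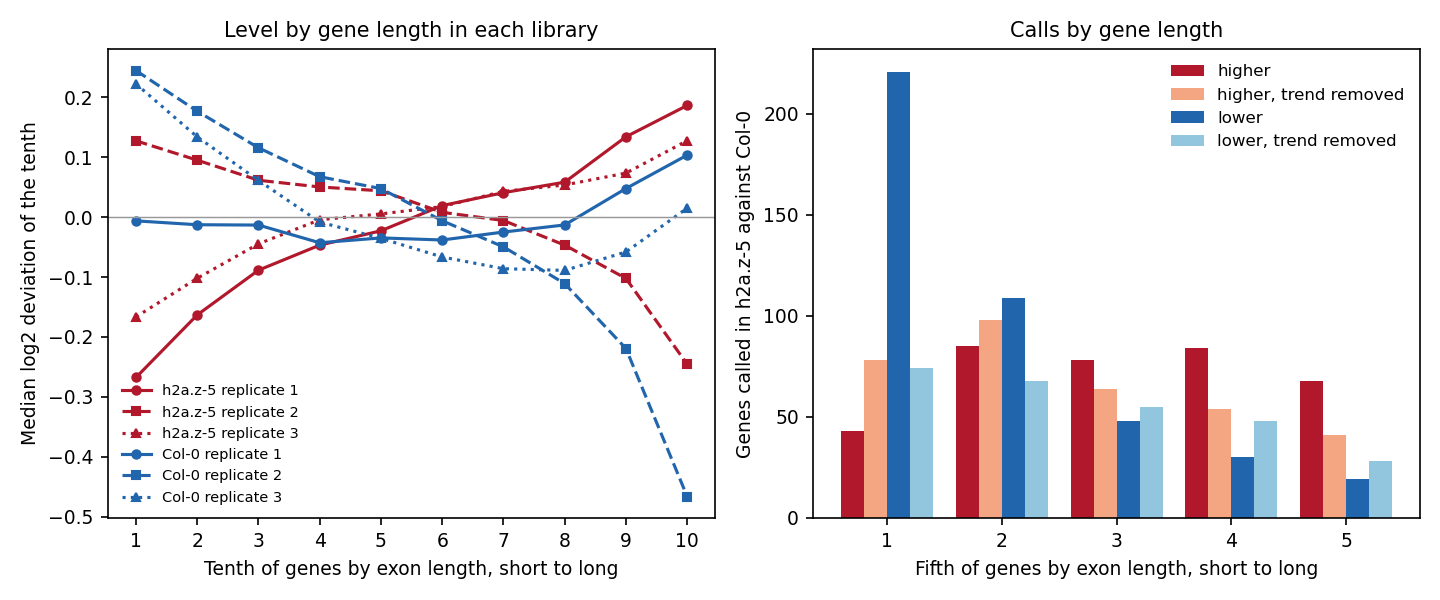
Left, the median log2 deviation from the 18-library mean of genes in each of 10 classes of exon length for each h2a.z-5 (red) and Col-0 (blue) library; right, the number of genes called in each of 5 classes of exon length, before and after the length trend was removed. Lower calls in the shortest class number 221 before and 74 after removal.

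Among flowering genes, the repressors FLC, MAF4 and MAF1 were lower, and AP1, LFY and AGL8, which act in floral meristem identity, were higher. Of 22 flowering time genes tested 3 rose and 3 fell, where 1.72% of all genes rose and 2.06% fell (list median log2 fold change 0.22, against 0.01 over all genes), and 2 of the higher and 1 of the lower calls were left without the block. FLC (chr5:3173382-3179448) stood at 0.0708, 0.285 and 0.267 CPM in h2a.z-5, against 0.669, 1.95 and 1.14 CPM in Col-0, a log2 fold change of -2.56 ± 0.50 (adjusted p 0.0102). All FLC levels were low, and the groups did not overlap; the adjusted p was 0.0535 without h2a.z-5 replicate 1 and 0.0651 without h2a.z-5 replicate 2, and 0.0526 without the block. MAF4, a relative of FLC and also a repressor, stood at 0.708, 0.907 and 1.01 CPM in h2a.z-5, against 1.51, 4.09 and 3.51 CPM in Col-0 (-1.75 ± 0.30, adjusted p 0.00452). MAF1, also known as FLM, a repressor tied to temperature, showed a smaller change at a higher level: 17.57, 22.8 and 17.9 CPM in h2a.z-5, against 26.2, 34.8 and 29.96 CPM in Col-0 (-0.64 ± 0.11, adjusted p 0.00352). Both fell with no overlap between groups. The call of MAF1 was lost without the block (adjusted p 0.145). MAF2 and MAF3, closely related to MAF4, stood at 9.78 to 12.5 and 6.26 to 8.19 CPM in h2a.z-5, against 11.1 to 12.9 and 5.50 to 8.30 CPM in Col-0, with adjusted p-values of 0.853 and 0.843.

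On the promoting side, AP1 (chr1:25982294-25986349), which sets floral meristem identity, stood at 3.57, 3.29 and 2.46 CPM in h2a.z-5, against 1.02, 0.220 and 0.303 CPM in Col-0 (2.69 ± 0.41, adjusted p 0.00172). LFY, its partner in floral meristem identity, stood at 0.945, 1.04 and 1.25 CPM in h2a.z-5, against 0.396, 0.252 and 0.430 CPM in Col-0 (1.56 ± 0.37, adjusted p 0.0276); the call held without 1 library and was lost without h2a.z-5 replicate 2 or 3 or any Col-0 library (adjusted p 0.0536 to 0.135), and without the block (0.0597). AGL8, also called FUL, a close relative of AP1, stood at 10.3, 10.8 and 9.90 CPM in h2a.z-5, against 7.01, 5.63 and 6.52 CPM in Col-0. That is a log2 fold change of 0.69 ± 0.12 (adjusted p 0.00425) with tight groups. Each of these genes rose and none of their groups overlapped. FT, the mobile signal that promotes flowering, stood at 1.61, 1.87 and 1.79 CPM in h2a.z-5, against 1.73, 1.35 and 1.42 CPM in Col-0, and SOC1, an integrator of flowering signals, at 20.8, 34.2 and 20.8 CPM in h2a.z-5, against 16.4, 29.8 and 18.7 CPM in Col-0. Their adjusted p-values were 0.709 and 0.325, and both had overlapping groups.

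Floral organ genes, which are normally expressed in developing flowers, were called in 7 of 10 tested, with 6 higher and 1 lower, where 1.72% of all genes were higher and 2.06% lower (list median 1.39). The summed level of the list was 20.7 to 30.1 CPM in h2a.z-5 and 15.6 to 19.1 CPM in Col-0. SEP2, a cofactor of the other floral MADS proteins, stood at 2.57, 1.11 and 1.25 CPM in h2a.z-5, against 0.272, 0.0943 and 0.126 CPM in Col-0 (3.31 ± 0.41, adjusted p 0.000323). AP3, a petal and stamen identity gene, stood at 2.15, 1.19 and 1.07 CPM in h2a.z-5, against 0.545, 0.0629 and 0.126 CPM in Col-0 (2.73 ± 0.34, adjusted p 0.000344). SEP3 stood at 3.26, 1.63 and 1.44 CPM in h2a.z-5, against 0.867, 0.534 and 0.379 CPM in Col-0 (1.83 ± 0.31, adjusted p 0.00374). All 3 rose with no overlap. SEP1 ran from 1.53 to 3.64 CPM in h2a.z-5 and from 0.786 to 1.98 CPM in Col-0, which overlap; its replicates differ together, and its change rests on the comparison within replicate number (0.94, adjusted p 0.0154). PI, the partner of AP3, rose (2.06, adjusted p 0.0161), as did CRC, a carpel and nectary gene (2.19, adjusted p 0.0439). AG, which specifies stamens and carpels, moved the other way: 1.09, 0.622 and 0.4 CPM in h2a.z-5, against 1.88, 1.73 and 1.54 CPM in Col-0 (-1.35 ± 0.30, adjusted p 0.0195). These genes are near or below 4 CPM in all libraries. Without the block 1 of the 7 stays called, SEP2 (adjusted p 0.0179). CRC was lost without any 1 library (adjusted p 0.0670 to 0.161). PI was lost without h2a.z-5 replicate 2 (0.0682) or Col-0 replicate 1 or 2 (0.0926 and 0.0631), SEP1 without h2a.z-5 replicate 1 or 3 or Col-0 replicate 2 or 3 (0.0670 to 0.0807), and AG without h2a.z-5 replicate 2 or 3 or Col-0 replicate 2 or 3 (0.0731 to 0.112). Of 8 SPL phase change genes none passed; edgeR gave 4 with an unadjusted p under 0.05, all higher, and DESeq2 called 2, both higher.

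**Figure D3:**
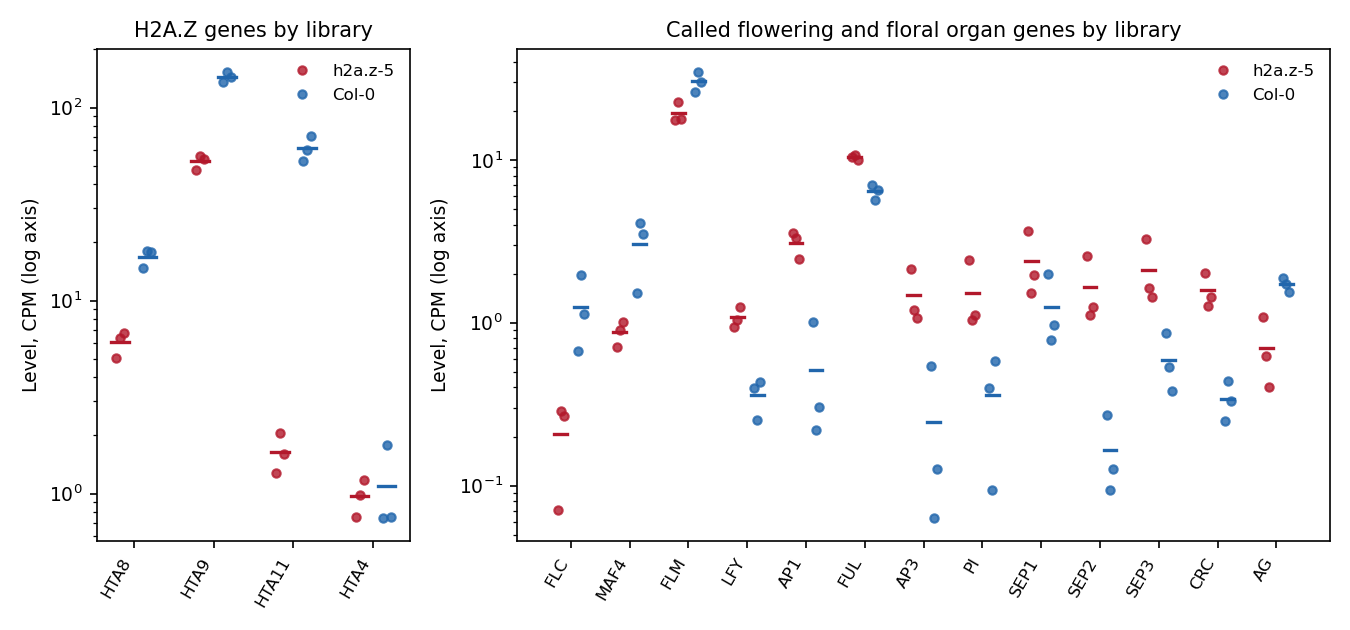
CPM (log axis) of the H2A.Z genes (left) and of the called flowering and floral organ genes (right) in each library; points are libraries, bars are means, red is h2a.z-5 and blue is Col-0. HTA11 shows the widest gap and HTA4 none; SEP1 overlaps, the other called genes do not. FLM is MAF1 and FUL is AGL8.

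Among gene silencing factors, 3 of 9 Argonaute genes tested rose and none fell, where 1.72% of all genes rose; edgeR gave none lower at an unadjusted p under 0.05, and DESeq2 called 4 higher and none lower. AGO5 (chr2:11871378-11876989), an Argonaute expressed in the germ line of the flower, stood at 7.75, 4.90 and 6.25 CPM in h2a.z-5, against 0.124, 0.0629 and 0.101 CPM in Col-0 (6.01 ± 0.41, adjusted p 6.31e-07). AGO9, which acts in the ovule, stood at 3.71, 1.74 and 3.39 CPM in h2a.z-5, against 0.446, 0.126 and 0.379 CPM in Col-0 (3.17 ± 0.43, adjusted p 0.000660). AGO3 stood at 3.00, 3.71 and 3.68 CPM in h2a.z-5, against 0.619, 0.723 and 0.885 CPM in Col-0 (2.22 ± 0.25, adjusted p 0.000127). Each of the 3 kept its call without the block and without any 1 library, and their groups did not overlap. The histone deacetylase gene HDA18 also rose, at 4.01, 3.65 and 4.06 CPM in h2a.z-5, against 0.991, 1.19 and 1.80 CPM in Col-0 (1.58 ± 0.21, adjusted p 0.000489). The chromatin remodeller gene CHR1, also called DDM1, needed to keep transposons methylated, rose by a log2 fold change of 0.52 (adjusted p 0.0220), and this call was lost with the length trend removed (0.0577), without the block (0.242), without h2a.z-5 replicate 1 or 2 (0.0707 and 0.118) and without any 1 Col-0 library (0.0515 to 0.129).

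The genes with moderate changes that are named here were taken by a fixed rule of smallest p in each size class. Of those at 2- to 4-fold higher, FLS2, here a flavonol synthase gene and not the flagellin receptor of the same name, stood at 11.5, 10.96 and 13.1 CPM in h2a.z-5, against 4.53, 3.74 and 5.61 CPM in Col-0 (1.36 ± 0.17, adjusted p 0.000375). NAT8, of the nucleobase-ascorbate transporter family, stood at 2.29, 1.79 and 2.46 CPM in h2a.z-5, against 0.768, 0.534 and 0.354 CPM in Col-0 (2.00 ± 0.25, adjusted p 0.000395). BAT1, an acyltransferase linked to brassinosteroid levels, and G6PD4, of the glucose-6-phosphate dehydrogenase family, rose by 1.44 and 1.38 on the log2 scale. CER1, needed for the alkanes of leaf wax, stood at 116, 90.8 and 111 CPM in h2a.z-5, against 67.4, 44.3 and 44.1 CPM in Col-0 (1.05 ± 0.15, adjusted p 0.00113). Hsp70-2, a chaperone, stood at 89.5, 60.8 and 75.5 CPM in h2a.z-5, against 56.8, 18.8 and 31.1 CPM in Col-0 (1.23 ± 0.18, adjusted p 0.00151). CESA9, a cellulose synthase known for its role in the seed coat, rose by 1.15. All the h2a.z-5 libraries of these genes lay above all Col-0 libraries, which the rule required. FLS2, NAT8, BAT1 and G6PD4 kept their calls without the block, and CER1, Hsp70-2 and CESA9 did not (adjusted p 0.0812, 0.482 and 0.222).

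Below 2-fold, TYRDC, a tyrosine decarboxylase, stood at 11.9, 9.54 and 9.32 CPM in h2a.z-5, against 7.80, 5.44 and 4.53 CPM in Col-0 (0.81 ± 0.13, adjusted p 0.00318). GLN1;4, a cytosolic glutamine synthetase, rose by 0.78, GH3.9, which conjugates auxin to amino acids, by 0.87, ENO1, a plastid enolase, by 0.61, ABCG13, an ABC transporter, by 0.81, UGT78D3, a flavonol glycosyltransferase, by 0.68, and MGT7, a magnesium transporter, by 0.98. ENO1 stood at 23.52, 23.2 and 22.5 CPM in h2a.z-5, against 15.2, 13.5 and 16.8 CPM in Col-0, a change of 0.61 ± 0.12 with groups that are tight. At the top of the level range TT5, the chalcone isomerase of flavonoid synthesis, stood at 116, 158 and 132 CPM in h2a.z-5, against 88.7, 116 and 102 CPM in Col-0 (0.40 ± 0.08, adjusted p 0.0136). PEL3, a cuticle acyltransferase, rose by 0.49 and SULTR3;1, a sulfate transporter, by 0.48. The calls of GH3.9 (0.0692 without Col-0 replicate 3), ENO1 (up to 0.0643), ABCG13 (up to 0.0860), UGT78D3 (up to 0.0786), MGT7 (up to 0.0673), TT5 (up to 0.0572), PEL3 (up to 0.0816) and SULTR3;1 (0.0558 to 0.155) were each lost without at least 1 library. Of these genes under 2-fold, GH3.9 alone kept its call without the block (0.0253), the others having adjusted p-values of 0.0503 to 0.464, and SULTR3;1 was also lost with the length trend removed (0.108). In the same fixed selection BGAL7, a beta-galactosidase, rose by 2.44 ± 0.34.

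On the lower side, MUB2, a membrane-anchored ubiquitin-fold protein, stood at 5.10, 4.82 and 5.47 CPM in h2a.z-5, against 13.2, 13.4 and 16.2 CPM in Col-0 (-1.47 ± 0.11, adjusted p 1.99e-06). XRCC4, the partner of DNA ligase IV in end joining, stood at 3.35, 4.09 and 3.95 CPM in h2a.z-5, against 7.28, 9.24 and 9.41 CPM in Col-0 (-1.18 ± 0.13, adjusted p 6.94e-05). MAP1B, annotated as a methionine aminopeptidase, stood at 3.64, 4.46 and 3.92 CPM in h2a.z-5, against 9.78, 11.2 and 11.9 CPM in Col-0 (-1.45 ± 0.17, adjusted p 0.000175). These 3 kept their calls without the block, without any 1 library and with the length trend removed. COBL2, of the COBRA family of cell wall proteins, was lower by -1.97 ± 0.24, and SR, a serine racemase, by -1.02 ± 0.15; without the block their adjusted p-values were 0.0885 and 0.0629.

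Of the genes lower by less than 2-fold, LOL2, a relative of the cell death regulator LSD1, stood at 3.02, 3.37 and 3.60 CPM in h2a.z-5, against 5.50, 6.73 and 6.04 CPM in Col-0 (-0.87 ± 0.13, adjusted p 0.00113). PAM1, annotated as plant adhesion molecule 1, stood at 11.9, 10.3 and 10.7 CPM in h2a.z-5, against 18.01, 16.7 and 17.9 CPM in Col-0 (-0.68 ± 0.11, adjusted p 0.00206). MED8, a subunit of Mediator, stood at 6.38, 4.38 and 5.29 CPM in h2a.z-5, against 10.5, 8.05 and 9.53 CPM in Col-0 (-0.81 ± 0.13, adjusted p 0.00245). HOL3, a methyltransferase, fell by 0.75, UGT85A1, a glycosyltransferase, by 0.87, Tic32-IVa, annotated as a Rossmann-fold protein and named for the chloroplast import machinery, by 0.71, and AGP15, an arabinogalactan protein, by 0.68. The groups of all these genes were apart, which the rule required. Without the block LOL2, PAM1, HOL3 and UGT85A1 kept their calls, and MED8, Tic32-IVa and AGP15 did not (adjusted p 0.107, 0.0726 and 0.498). The most abundant lower genes were ESM1, a modifier of glucosinolate breakdown, CSD2 and CSD1, copper/zinc superoxide dismutases, and GSTU19, a glutathione transferase. ESM1 stood at 785, 692 and 708 CPM in h2a.z-5, against 1357, 1052 and 1040 CPM in Col-0 (-0.65 ± 0.13, adjusted p 0.0138). CSD2, CSD1 and GSTU19 were lower by -0.67, -0.76 and -0.45, and with the length trend removed their adjusted p-values were 0.0822, 0.0541 and 0.101. Leaving out 1 library gave adjusted p-values up to 0.219 for CSD2, 0.142 for CSD1, 0.149 for GSTU19 and 0.0607 for ESM1, and without the block the adjusted p-values were 0.148, 0.0877, 0.227 and 0.117.

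**Figure D4:**
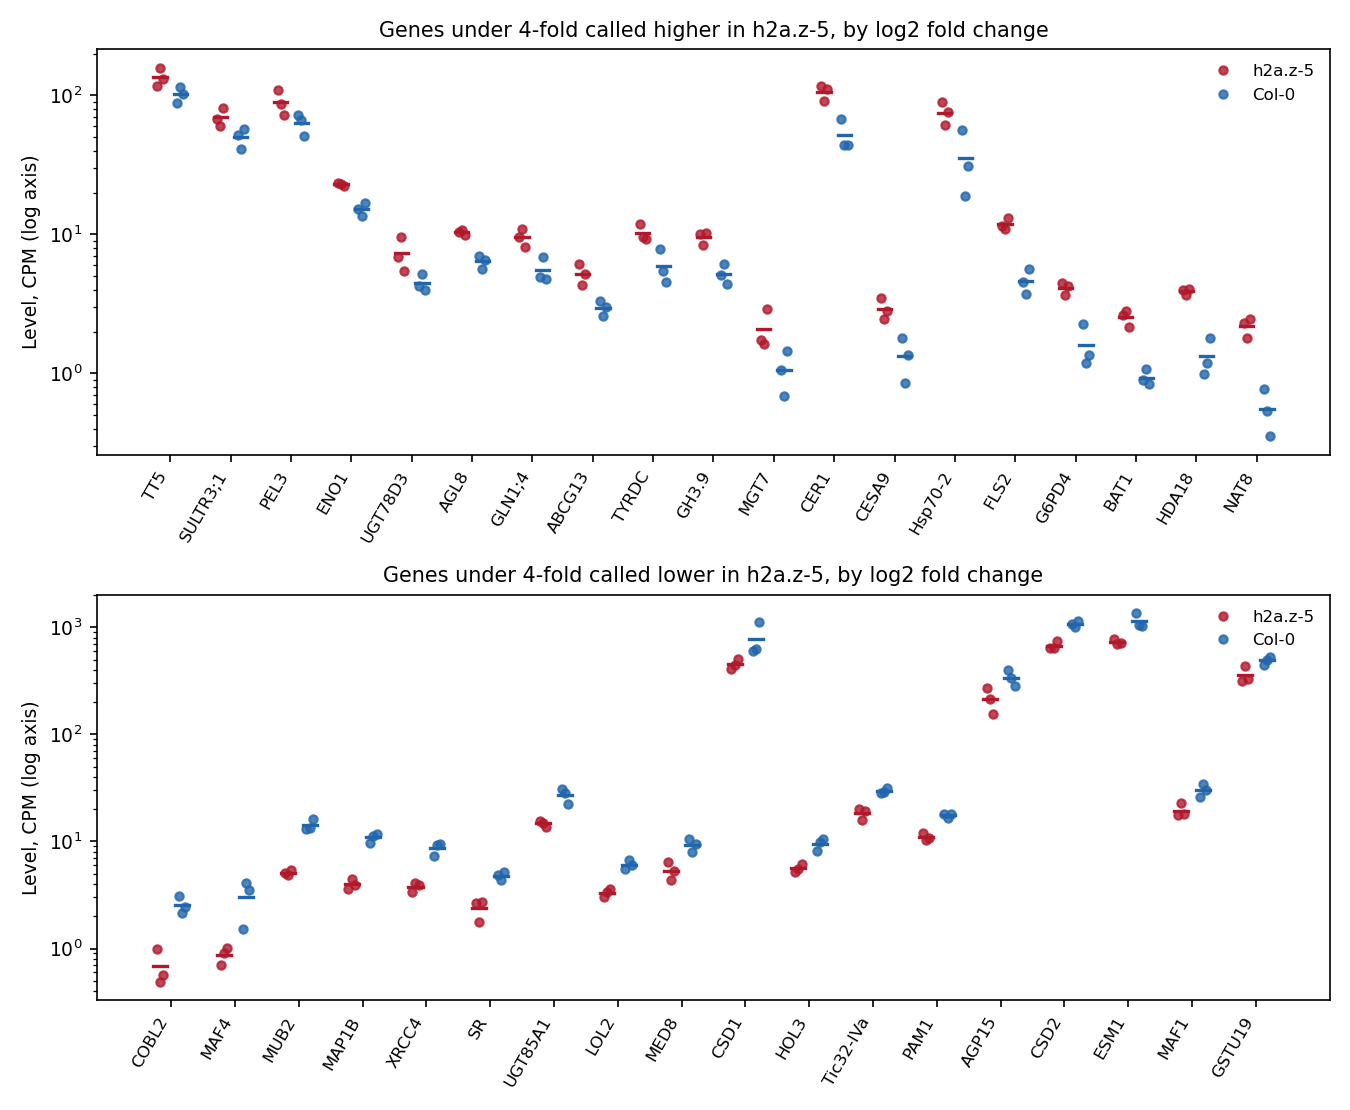
CPM (log axis) in each library of the named genes with changes under 4-fold, higher in h2a.z-5 above and lower below, ordered by log2 fold change; red is h2a.z-5, blue is Col-0, bars are means. The groups of every gene shown are apart, which the naming rule required, and the gap is narrow for genes such as TT5 and GSTU19.

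Gene families were counted from the annotated product names. B3 domain genes encode plant DNA-binding factors and include the REM genes of reproductive meristems. Of 59 genes annotated with a B3 domain 14 (23.7%) rose and none fell, where 1.72% of all genes rose and 2.06% fell. By edgeR 2 were lower at an unadjusted p under 0.05, and DESeq2 called 18 higher and 1 lower. All 14 had groups apart, as had 322 of the 358 genes called higher and 7.8% of all genes tested. Their mean levels were 0.130 to 8.82 CPM and their log2 fold changes 0.71 to 4.39 in these 14 genes. AT3G53310 stood at 8.48, 8.42 and 6.83 CPM in h2a.z-5, against 2.50, 1.29 and 1.82 CPM in Col-0 (2.07, adjusted p 2.54e-05), and AT4G34400 at 7.53, 5.96 and 5.20 CPM in h2a.z-5, against 2.72, 1.32 and 1.24 CPM in Col-0 (1.85, adjusted p 9.53e-05). REM22 and REM1 rose by 3.78 and 1.93; REM1 was lost without Col-0 replicate 3 (adjusted p 0.0567). MP, an auxin response factor with a B3 domain, rose by 0.72. Of the 14, 6 kept the call without the block, and 5 kept it whichever of the 6 libraries was left out. Of 200 F-box genes, which encode substrate adaptors of ubiquitin ligases, 15 (7.5%) rose and 3 (1.5%) fell, with 9 of the 15 left without the block. Among them AT5G60610 stood at 3.00, 1.97 and 2.48 CPM in h2a.z-5, against 0.372, 0.0629 and 0.278 CPM in Col-0 (3.35, adjusted p 2.63e-05). Of 43 MADS genes 9 (20.9%) rose and 7 (16.3%) fell, the flowering genes above among them. AGL42 and AT2G41470 were also higher (1.14 and 1.69), and AGL18, AGL102 and AT4G36590 also lower (-0.50, -1.39 and -1.86). Of the MADS genes called, 3 of the higher and 1 of the lower were left without the block. Of 36 TRAF-like genes 6 (16.7%) rose and 2 (5.56%) fell. AT2G25330, a TRAF-like gene, stood at 1.77, 3.06 and 2.46 CPM in h2a.z-5, against 0, 0.0314 and 0 CPM in Col-0 (285 and 1 counts, adjusted p 1e-06). Of 133 cytochrome P450 genes 6 rose and none fell; edgeR gave 6 lower at an unadjusted p under 0.05, DESeq2 called 9 higher and none lower, and 2 of the 6 were left without the block. For WRKY factors, the regulators of defence genes, 0 of 55 passed (8 with an unadjusted p under 0.05; DESeq2: 0). Of 351 ribosomal protein genes 2 (0.57%) rose and 7 (1.99%) fell, shares below or near those of all genes (1.72% and 2.06%). With the length trend removed 7 were called higher and 2 lower, where 1.61% and 1.31% of all genes were. The F-box and B3 families hold many similar copies, so reads could be shared between members, which the counts do not show.

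Among the 117 genes over 4-fold, 9 higher genes had no count in Col-0 and 7 lower genes no count in h2a.z-5. AT1G65050, a TRAF-like gene, had 115 counts over the h2a.z-5 libraries and 0 over Col-0, at least 36.2-fold higher against a limit of 3 counts over the group. AT2G04070 had 0 counts in h2a.z-5 and 260 in Col-0, at least 91.9-fold lower, and its neighbour AT2G04080, a MATE efflux gene, fell too. AT2G04080 was called neither in hda9-1 h2a.z-5 over hda9-1 nor in hda6-1 h2a.z-5 over hda6-1. For AT2G04080 a difference between lines cannot be told apart from the mutation. Noncoding RNA genes made up 13 of the 39 genes over 4-fold lower, against 2.98% of all genes tested. QQS, an orphan gene of variable expression, fell by 1.76 on the log2 scale (adjusted p 0.0375), a call lost without any 1 library (0.0515 to 0.206), without the block (0.0525) and with the length trend removed (0.0756). Its log2 fold change was 0.85 in hda9-1 h2a.z-5 over hda9-1 and -0.71 in hda6-1 h2a.z-5 over hda6-1. Neither was called (adjusted p 0.174 and 0.237 by edgeR).

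Neighbours were examined because chromatin changes can run over adjacent genes. Of 13478 pairs of adjacent tested genes, 7 had both genes higher, 8 both lower and 10 one of each, and none of these pairs overlapped in position. Of the tested neighbours of higher genes 3.07% were also higher, where 1.72% of all genes were. Of the neighbours of lower genes 3.02% were also lower, where 2.06% of all genes were. These shares rest on 14 of 456 and 16 of 529 neighbours, and their difference from the share of all genes was not tested. The median log2 fold change of the neighbours was 0.07 beside higher genes and -0.01 beside lower genes. The longest run of tested genes called in 1 direction held 3 genes, AT3G12410, AT3G12440 and AT3G12460, all higher, with untested genes between them. The pairs include LFY with AT5G61865, MGT7 with AT5G09700, and AT5G47590 with AT5G47600, all higher. Of opposite pairs, SHN1, AGO3 and CER4 were higher beside a lower gene. Around the mutated genes, 4 of 72 genes within 50 positions of HTA8, 4 of 59 around HTA9 and 6 of 71 around HTA11 were called (5.56%, 6.78% and 8.45%), where 3.78% of all genes were.

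The 250 bases before the annotated start were searched on both strands for 10 short motifs. Over all genes called higher, the telo-box core (AACCCTA) was in 8.66% of promoters, the W-box core (TTGACC) in 15.4%, TATAAA in 48% and TGGGCC in 15.4%, against 5.59%, 11.9%, 45.7% and 16.3% of all genes tested. Over all genes called lower, they were in 7.49%, 11.5%, 41.7% and 43 of 427. The size classes in which each of these 4 stood farthest from all genes were picked after the shares were seen. The telo-box core, found before genes of growing tissue, was in 13 of 78 promoters (16.7%) of genes over 4-fold higher, and in 5.59% of all. It was also in 5 of 39 (12.8%) of genes over 4-fold lower. Among all genes in the shortest of 5 exon length classes it was in 7.53%. The W-box core, bound by WRKY factors, was in 33 of 146 (22.6%) of genes under 2-fold higher and in 11.9% of all. It stood in 21.8% of the 87 of these genes that kept their call with the length trend removed. TATAAA was in 17.9% of genes over 4-fold lower and in 45.7% of all, and TGGGCC in 3.95% of genes at 2- to 4-fold lower and in 16.3% of all. The other motifs were G-box (CACGTG), heat shock element (GAANNTTC), evening element core (AATATCT), P1BS-like (GNATATNC), ABRE (ACGTGTC) and the ethylene-linked GCCGCC, of which the G-box and the ABRE can overlap. Over all genes called higher, these stood in 6.70%, 6.70%, 7.54%, 3.91%, 5.03% and 2.23% of promoters, against 7.20%, 9.41%, 9.93%, 5.41%, 4.1% and 2.03% of all genes tested. A match is only a description of the letters. The following 5 promoters (RefSeq, TAIR10.1) hold the telo-box core and have no neighbouring gene in the window. They are shown because their genes rose over 4-fold in h2a.z-5 over Col-0. These genes were also called higher, by any size of change, in hda9-1 h2a.z-5 over hda9-1 and hda6-1 h2a.z-5 over hda6-1. Capitals mark the motif on either strand.
AT1G65050 (TRAF-like, chr1:24165936-24166185, minus strand): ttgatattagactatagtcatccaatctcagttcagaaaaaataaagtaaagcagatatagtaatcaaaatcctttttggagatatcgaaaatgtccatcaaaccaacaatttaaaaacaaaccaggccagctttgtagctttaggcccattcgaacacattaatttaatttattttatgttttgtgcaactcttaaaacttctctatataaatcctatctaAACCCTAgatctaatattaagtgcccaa
AT3G20710 (F-box, chr3:7239150-7239399, minus strand): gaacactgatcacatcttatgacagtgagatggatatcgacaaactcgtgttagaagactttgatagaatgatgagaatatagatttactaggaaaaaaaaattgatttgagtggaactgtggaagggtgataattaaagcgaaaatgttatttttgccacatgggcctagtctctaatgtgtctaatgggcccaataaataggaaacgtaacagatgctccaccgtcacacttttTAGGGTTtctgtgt
AT3G26010 (kelch repeat, chr3:9511651-9511900, plus strand): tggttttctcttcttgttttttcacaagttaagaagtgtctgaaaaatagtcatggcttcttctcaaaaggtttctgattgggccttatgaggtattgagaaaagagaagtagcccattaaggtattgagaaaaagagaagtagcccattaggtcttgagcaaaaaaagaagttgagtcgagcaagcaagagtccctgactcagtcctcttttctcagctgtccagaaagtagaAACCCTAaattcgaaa
AT3G28330 (F-box-like, chr3:10587760-10588009, minus strand): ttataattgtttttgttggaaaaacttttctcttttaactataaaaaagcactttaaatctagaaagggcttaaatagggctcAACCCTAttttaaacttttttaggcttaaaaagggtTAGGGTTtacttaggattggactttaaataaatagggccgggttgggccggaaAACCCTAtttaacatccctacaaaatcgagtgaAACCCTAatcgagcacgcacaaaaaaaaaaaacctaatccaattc
AT5G47600 (HSP20-like, chr5:19300504-19300753, minus strand): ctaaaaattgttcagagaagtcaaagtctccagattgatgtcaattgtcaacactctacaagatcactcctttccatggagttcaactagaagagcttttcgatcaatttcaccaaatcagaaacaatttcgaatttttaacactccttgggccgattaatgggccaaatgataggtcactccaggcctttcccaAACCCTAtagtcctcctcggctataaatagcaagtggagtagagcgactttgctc
The window of AT3G28330 holds 4 matches and each other window holds 1.

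The same mutant line was also combined with hda9-1 and hda6-1, mutations of the histone deacetylases HDA9 and HDA6. These comparisons share no library with that of h2a.z-5 and Col-0, and they called 870 (4.19%) and 1049 (5.05%) of the genes tested. They come from the same fit over 18 libraries, with the same spread estimate for each gene and the same replicate block. The calls are therefore not independent, because a gene with a low spread estimate passes more easily in each comparison. Of the 358 higher genes, 342 had the same sign in hda9-1 h2a.z-5 over hda9-1 and 177 were called higher there, where 2.05% of all genes were. In hda6-1 h2a.z-5 over hda6-1, as labelled, 352 had the same sign and 185 were called higher, where 2.2% of all genes were. Of the 427 lower genes 407 and 413 had the same sign, and 131 and 170 were called lower, where 2.14% and 2.85% of all genes were. Over all genes tested, 49.8% and 50.8% had a positive log2 fold change in hda9-1 h2a.z-5 over hda9-1 and hda6-1 h2a.z-5 over hda6-1. Among genes under 2-fold higher 38.4% and 37.0% were called again, and among those over 4-fold higher 56.4% and 62.8%; how often a change is called depends on its size. In each replicate number the combined mutant library lay below its hda9-1 or hda6-1 partner in the measure of short against long genes. Of genes called with that trend removed, 54.3% and 57.0% of the higher were called again in the same direction. For the lower genes these shares were 36.3% and 43.6%. Of the moderate genes MUB2 fell by 1.08 in hda9-1 h2a.z-5 and by 1.38 in hda6-1 h2a.z-5, and XRCC4 fell by 1.29 and by 0.79. FLM, written MAF1 above, was -0.20 and -0.22 there, with adjusted p-values of 0.305 and 0.283. Also called in neither comparison were G6PD4, ENO1, MGT7 and GSTU19 (adjusted p 0.0524 to 0.669 by edgeR). MED8, UGT85A1, Tic32-IVa, AGP15, Hsp70-2 and SULTR3;1 were not called in hda9-1 h2a.z-5 over hda9-1 (0.118 to 0.507), and were called in hda6-1 h2a.z-5 over hda6-1. The reverse held for CER1, PEL3, ABCG13, ESM1, HDA18, CSD1, CSD2 and GH3.9. They were called in hda9-1 h2a.z-5 over hda9-1, and not in hda6-1 h2a.z-5 over hda6-1 (adjusted p 0.0503 to 0.813 by edgeR). The h2a.z-5 effect itself differed in hda9-1 from that in Col-0 for 14 genes (0.0674%), with 10 (0.0481%) more positive and 4 (0.0193%) more negative in hda9-1. In hda6-1 it differed for 18 genes (0.0867%), with 12 (0.0578%) more positive and 6 (0.0289%) more negative.

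**Figure D5:**
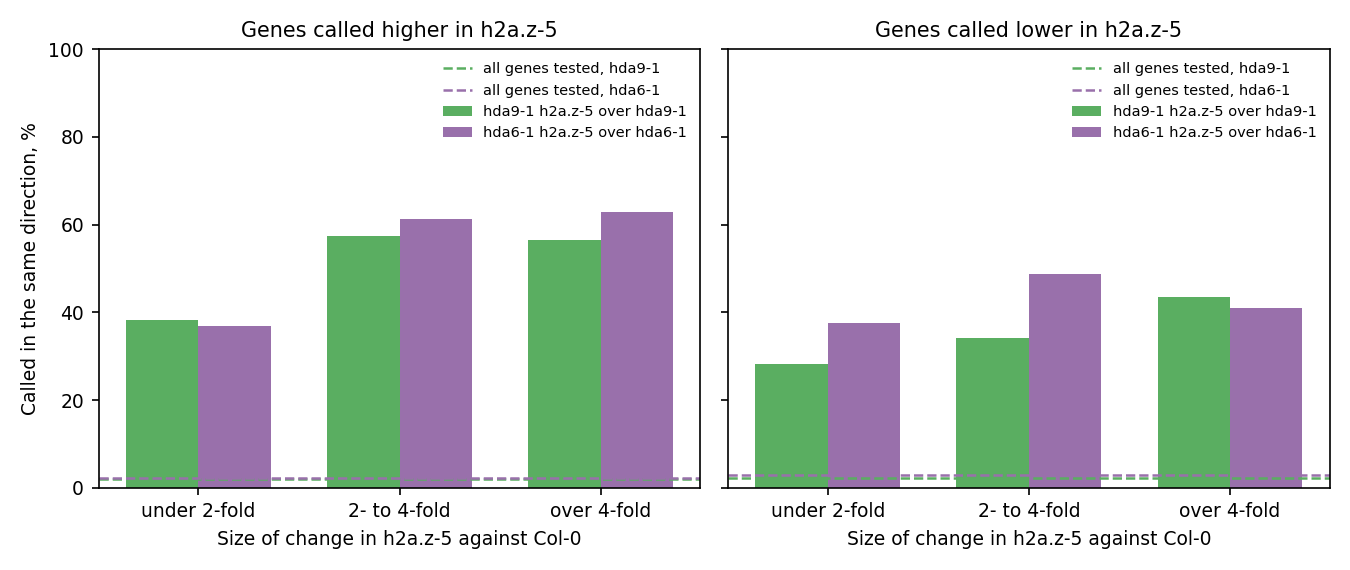
Share of genes called in h2a.z-5 against Col-0 that were also called in the same direction in hda9-1 h2a.z-5 over hda9-1 (green) and hda6-1 h2a.z-5 over hda6-1 (purple), by size of change; dashed lines give the share of all genes tested. Every bar lies above the dashed lines, the lowest at 28.2%.

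TSA raises histone acetylation, and its comparison was set beside that of h2a.z-5 as a separate experiment in other medium. TSA against Mock called 44.8% of genes, 22.7% higher and 22.1% lower. Of the 276 higher genes tested there 118 (42.8%) were higher and 47 (17.0%) lower with TSA. Of the 409 lower genes tested there 41 (10.02%) were higher and 180 (44.0%) lower with TSA. Short genes fell more often with TSA as well (30.5% of the shortest of 5 length classes). In each class the genes lower in h2a.z-5 were called lower with TSA in 29.8% to 50% of cases, against 19.4% to 30.5% of all genes of those classes; the longest class held 16 such genes. AGO5, AGO9 and HDA18 were also higher with TSA (log2 fold changes 5.15, 7.20 and 2.88), and AGO3 had a log2 fold change of 1.33 there (adjusted p 0.0536).

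Transposable elements were counted in their own table. With hda6-1 replicate 1 left out, because it held no count for chromosome 5 elements, 37 of 1893 elements tested were called (1.95%), 13 higher (0.687%) and 24 lower (1.27%). AT2TE06165 had 264 counts over h2a.z-5 and 0 over Col-0. Its call was lost with DESeq2. In hda9-1 h2a.z-5 over hda9-1 its log2 fold change was -1.88 (adjusted p 0.635 by edgeR). For it a difference between lines cannot be told apart from the mutation. AT1TE93275 had 2003 counts in h2a.z-5 and 8 in Col-0 (log2 fold change 7.81, adjusted p 8.11e-11); its counts are nearly those of AT1G75945, which was low in Col-0 alone among the 6 genotypes, so that a difference between lines cannot be told apart from the mutation. On the lower side AT2TE20630 had 3 counts in h2a.z-5 and 106 in Col-0, and AT1TE42665 had 2 and 64. AT5TE48590 and AT5TE61030 had 0 counts in h2a.z-5 and 35 and 34 in Col-0. AT3TE46255 and AT4TE06710 had 39 and 44 counts in h2a.z-5, and 6 and 7 in Col-0. The calls of these 4 elements were lost with hda6-1 replicate 1 included and without any 1 of several libraries. Those were each h2a.z-5 library and Col-0 replicate 1 for AT5TE48590 and AT5TE61030, with Col-0 replicate 2 too for AT5TE61030. They were replicates 1 and 3 of both groups for AT3TE46255, and each Col-0 library and h2a.z-5 replicates 2 and 3 for AT4TE06710. These 4 elements, AT2TE20630 and AT1TE42665 kept their sign in hda9-1 h2a.z-5 over hda9-1. None was called there (adjusted p 0.190 to 0.800 by edgeR). For them too a difference between lines cannot be told apart from the mutation. Several elements share their reads with a gene: AT1TE93275 and AT1G75945 differ by 0.663% of their counts over 17 libraries, and AT3TE51150 and QQS by 0.350%, so each such pair is 1 signal in both tables. Of the 37 elements 33 had the same sign in hda9-1 h2a.z-5 over hda9-1 and 9 were called there. The matching shares over all elements tested were not counted, so these numbers are a description only. Without the block 6 higher and 12 lower elements were called.

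Of the gene lists of defence, hormones and stress, few members passed. PR1, an output gene of salicylic acid, stood at 8.60, 0.337 and 8.51 CPM in h2a.z-5, against 30.2, 9.72 and 40.7 CPM in Col-0 (-2.35 ± 0.62, adjusted p 0.0469). It was 1 of 25 salicylic acid defence genes that fell, with 0 higher. Its call was lost without any 1 library (adjusted p 0.0690 to 0.151), without the block (0.437) and with the length trend removed (0.100). IAA19, an auxin-inducible repressor (-0.59), SAG21, a senescence-associated gene (-1.04), and AT3G13610, of iron homeostasis (-2.16), also fell, with adjusted p-values of 0.0439, 0.0458 and 0.0492. Each was lost without the block (0.305, 0.706 and 0.375), and with 1 library left out their adjusted p-values reached 0.178, 0.234 and 0.230. Each of these 3 had overlapping groups. In hda9-1 h2a.z-5 over hda9-1 and hda6-1 h2a.z-5 over hda6-1, IAA19 was -0.06 and 0.04 (adjusted p 0.854 and 0.934 by edgeR). SAG21 was lower but called in neither, AT3G13610 was called lower in the first alone, and PR1 was called lower in both. The heat shock list had no call among 16 genes (7 with an unadjusted p under 0.05; DESeq2: 2 higher), nor had the jasmonate list among 22 (2 with an unadjusted p under 0.05; DESeq2: 1 higher) or the phosphate starvation list among 24 (10 with an unadjusted p under 0.05; DESeq2: 2 higher).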

How the data were processed

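The gene and transposable element tables hold raw counts per feature as deposited by the authors, and the tools that aligned and counted the RNA reads were not given in the sources used here. Build TAIR10 and the tools of the ChIP part are named in the submitters' processing notes. In the authors' deposited comparison tables, log2 fold changes and adjusted p-values are as the authors computed them, by a test that no label names. The design text calls the 3 libraries of a group independent biological replicates. It names nrp1-1 nrp2-2 where the sample labels have h2a.z-5; groups follow the labels, and HTA8, HTA9 and HTA11 transcripts were checked in each library.

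Counts were tested by quasi-likelihood in edgeR (version 4.0.16, R version 4.3.3; TMM, genes kept at a minimum count of 10) over the 18 genotype libraries, with replicate number as a block and Benjamini-Hochberg adjustment over all genes tested, at 0.05. Elements used 17 libraries and the gene tables' library sizes. TSA and Mock were fitted apart. Ribosomal RNA genes took 0.155% to 0.236% of counts. Replicate number was taken to pair the samples. Deviations of same-numbered libraries from their group means correlated positively in all 45 pairs (0.142 to 0.647, median 0.403). For different numbers the correlations ran from -0.565 to 0.286 (median -0.24), so the ranges overlapped. Deviations from a group mean cancel within the group, so positive values for same numbers push those for different numbers below them. The negative median is therefore no separate evidence of pairing. CPM uses TMM library sizes, and RPKM divides by RefSeq exon length. Code was tested on simulated data.

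The members and the 29 gene lists were chosen with earlier results of these data known. Named genes are protein coding, have a symbol, average at least 1 CPM and have groups apart: per direction the 4 largest changes, the 8 of smallest p at 2- to 4-fold and the 8 under 2-fold, and the 4 of highest level under 4-fold. They further include up to 4 called members per list. Chosen after values were seen were the B3, TRAF-like and cuticle groups, the motifs and promoters, the length and GC fits, and PI, AG, CRC, MAF2, MAF3, FT, SOC1 and the locus numbers named. Alternatives were DESeq2 1.42.0, other scaling, no low-count filter, the 6 libraries alone, no block and each library left out. Strand of counting is not given, so overlapping and antisense genes, and near-identical copies, are uncertain. The depth of 32795474 to 39633678 counts limits genes under about 1 CPM most.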

Additional observations from a re-analysis of the deposited data

Results flagged for a closer look

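Over all genes tested, the h2a.z-5 effect differed in hda9-1 or hda6-1 from that in Col-0 for 24 genes. Of these, 18 were also called in h2a.z-5 against Col-0. The 4 described here are those among the named genes, the called neighbour pairs and the genes that share counts with called elements. Both tests of a difference share the h2a.z-5 and Col-0 libraries. AT1G75945, an uncharacterized gene, stood at 13.0, 20.7 and 17.2 CPM in h2a.z-5, against 0.0991, 0.0629 and 0.0253 CPM in Col-0. It stood at 9.59 to 13.4 CPM in hda9-1 h2a.z-5, against 13.1 to 17.75 CPM in hda9-1, and at 19.8 to 31.8 CPM in hda6-1 h2a.z-5, against 21.7 to 32.1 CPM in hda6-1. Col-0 was thus the low group. The effect in hda9-1 minus that in Col-0 was -8.52 on the log2 scale and that in hda6-1 minus Col-0 was -8.21.

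AT2G04080, a MATE efflux gene, was low in h2a.z-5, at 2.69, 2.62 and 3.497 CPM, against 12.1, 19.4 and 32.6 CPM in Col-0. The combined mutants, hda9-1 and hda6-1 all lay between 16.9 and 37.2 CPM (differences 2.46 in hda9-1 and 3.19 in hda6-1). AT3G29120 was likewise low in h2a.z-5, at 0.307, 0.570 and 0.454 CPM, against 5.42, 6.26 and 4.65 CPM in Col-0. It stood at 4.39 to 9.14 CPM in the combined mutants, hda9-1 and hda6-1 (differences 3.88 and 3.97). SADHU5-1, a retroelement gene, fell in h2a.z-5 (log2 fold change -4.41) and in hda9-1 h2a.z-5 over hda9-1 (-5.03), and stood at 15.1 to 31.2 CPM in hda6-1 h2a.z-5, against 25.9 to 41.3 CPM in hda6-1 (difference 3.73 in hda6-1). For AT1G75945, AT2G04080 and AT3G29120, which were called in neither combined mutant, a difference between lines cannot be told apart from the h2a.z-5 mutation.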

How the results depend on the processing

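No named result changed direction under any alternative run. The naming rules gave 64 results, the selected genes and the elements of largest change. FLC, LFY, PI, AG, CRC and the other genes named beyond those rules are not among the 64. Of 1077 values of these 64 results under the alternatives, 805 kept their side of the threshold and 272 lost it. Of the 64, 13 were called in every setting, and 40 whichever single library was left out. The 6 libraries alone called 572 genes higher and 780 lower. DESeq2 called 694 lower, and removal of the length trend left 273 lower. At an adjusted p under 0.01, 119 were higher and 107 lower. Without the replicate block 109 genes were higher and 80 lower, and 132 and 64 in hda9-1 h2a.z-5 over hda9-1, and 168 and 301 in hda6-1 h2a.z-5 over hda6-1. Leaving out 1 library or 1 replicate number gave 37 to 220 higher and 34 to 325 lower, the lowest without replicate 2; fewer samples alone lower such counts. For elements, the 6 libraries alone called 22 higher and 47 lower, no low-count filter 23 and 46, no replicate block 6 and 12, and inclusion of hda6-1 replicate 1 called 6 and 9. Leaving out libraries gave 5 to 10 elements higher and 4 to 13 lower. Median-ratio scaling, GC trend removal, no filter on genes and removal of ribosomal RNA genes kept both gene counts within 1.5 times. The cause of these differences was not tested. Depth limits genes of low level, where only large changes can pass.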

Other observations

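Genes of the leaf cuticle and its waxes formed a group chosen after values were seen. Of 26 tested, 6 rose and none fell, where 1.72% of all genes rose; by edgeR 1 was lower at an unadjusted p under 0.05, and DESeq2 called 7 higher and none lower. SHN1, an activator of wax genes, stood at 0.708, 0.700 and 0.667 CPM in h2a.z-5, against 0.0495, 0.189 and 0.101 CPM in Col-0. CYP96A15, the alkane hydroxylase of stem wax, stood at 1.44, 1.19 and 1.12 CPM in h2a.z-5, against 0.124, 0.283 and 0.303 CPM in Col-0. Both had groups apart. Their log2 fold changes were 2.64 and 2.38, beside those of CER1, PEL3 and ABCG13 given above and of CER4, a fatty acyl reductase, at 1.06 with overlapping groups. CER2, CUT1 and ABCG12, also of wax synthesis and export, had adjusted p-values of 0.808, 0.663 and 0.892. Without the block CYP96A15 alone was called (adjusted p 0.0452). SHN1 was lost without any 1 library other than Col-0 replicate 2 (0.0555 to 0.123), CYP96A15 without h2a.z-5 replicate 2 or Col-0 replicate 1 (0.0641 and 0.0698), and CER4 without any other than h2a.z-5 replicate 3 (0.0663 to 0.163).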
